A study of Homo sapiens with 54 samples.

Results

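Dividing macrophages in the 3D culture at day 12 are described here from a single-cell RNA library. A cell entered with at least 1000 UMIs (unique molecular identifiers, each counted as 1 RNA molecule), at least 500 genes and under 15% of its UMIs from mitochondrial genes, which kept 7961 of 8159 barcodes. It was taken as a macrophage when CD14, CD163, C1QA, C1QB and C1QC summed to at least 5 UMIs, and as dividing when MKI67 and TOP2A summed to at least 3. The rule found 2337 macrophages, 29.4% of the cells kept (95% exact binomial interval 28.4 to 30.4%), and 1375 of them were dividing, out of 26455 cells kept in all 3 single-cell libraries. They were compared with the 608 macrophages that had 0 UMIs of both genes, and 354 macrophages with 1 or 2 UMIs lay between.

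All cells came from H1, an established line of human pluripotent stem cells, differentiated into macrophages (iMac in the labels) and grown by a 3D protocol labelled PMS, for which the series title names a porous microscaffold, or by a 2D protocol. Single cells were measured in 3D culture at days 7, 9 and 12, with 1 library per day, each labelled as macrophage. Bulk RNA of separate libraries is used from 3D day 12 and 2D day 12 (4 libraries each) and from 3D days 16, 19 and 23 without FBS in the label (3 each). A single cell line supplied every sample, and the labels do not say whether replicates were separate cultures, so p-values measure only the spread between these libraries. With 1 single-cell library per day no test across samples is possible, and every interval on single-cell values covers counting error only.

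Most cells that divide copy their DNA in S phase and separate it in mitosis after a gap called G2. Ki-67, the product of MKI67, coats mitotic chromosomes, and topoisomerase II alpha, the product of TOP2A, untangles DNA before separation. Both RNAs accumulate from S phase to mitosis and are low in resting cells. Macrophages made from circulating monocytes are usually described as non-dividing, whereas tissue-resident macrophages of the fetus and adult can renew themselves by division, with MYC and KLF4 among the regulators studied in the mouse.

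The members were chosen by their measured UMIs of MKI67, TOP2A and the 5 macrophage genes, so the values of these genes only describe the choice. Every other gene comes from the same cells, so its differences describe these cells too and carry no test. MKI67 (ENSG00000148773, chromosome 10, 128096659 to 128126423 in GRCh38.p14) stood at 291 CPM (the UMIs of a gene scaled to a fixed total of pooled UMIs) and TOP2A (ENSG00000131747, chromosome 17, 40388525 to 40417896) at 531 CPM in dividing macrophages, and both were 0 by definition in the macrophages they are set against. Of the members, 1169 (85%) held UMIs of both genes, 46 of MKI67 alone and 160 of TOP2A alone. Their summed UMIs had a median of 17, with quartiles of 7 and 47. Just inside the threshold stood 97 cells with 3 UMIs and just outside it 129 with 2. For the macrophage threshold, 12 cells with the MKI67 and TOP2A level of members had exactly 5 macrophage UMIs and 22 had 4.

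Macrophage genes the rule did not use kept a similar sum in members, but not each at an equal level. AIF1, a cytoskeletal protein of macrophages, was at 1287 CPM in dividing macrophages and 1140 CPM in those at 0. MRC1, the mannose receptor, was at 663 CPM in dividing macrophages and 608 CPM in those at 0, and CD68, a lysosomal glycoprotein, at 167 CPM in dividing macrophages and 299.6 CPM in those at 0, a log2 fold of -0.84 that became -0.51 after the depth weighting described below. CSF1R was lower as well, with a log2 fold of -1.09, or -0.54 after the same weighting. The 5 macrophage markers that are not rule genes were AIF1, MRC1, CD68, CSF1R and MS4A7. They summed to 2487 CPM in dividing macrophages and 2746 CPM in those at 0, and most of either sum came from AIF1 and MRC1. Cells outside the macrophage rule, which were chosen for low levels of the 5 rule genes, had 222 CPM of these markers. None of the markers of 9 other cell types was at 0 in the pooled members. Granulocyte progenitor markers summed to 211 CPM in dividing macrophages and 82.3 CPM in those at 0, against 2481 CPM in cells outside the rule. Erythroid markers summed to 1304 and 976 CPM in the same order and 13977 CPM outside, and stroma markers to 1493 and 2467 CPM and 14292 CPM outside. The lymphoid list was at 64.3 and 114 CPM and 64 CPM outside, and in the remaining 5 lists both groups of macrophages lay below the cells outside. Per cell, the median member held 5 erythroid and 8 stroma UMIs beside 182 UMIs of the 10 macrophage markers, rule genes included. Free RNA in droplets reaches cells of every type, and of 3824 cells rich in collagen RNA 6.09% passed the macrophage threshold. The part of other cell types in the results was not tested, but each list count below was also taken without cells of 50 or more collagen UMIs, an alternative chosen after seeing the data, and none moved by more than 3 genes. The stricter filter, which dropped cells with 3 or more UMIs of any other cell type list, left 10 dividing macrophages and 10 at 0. In these, origin licensing and firing had 8 higher and 2 lower of 15, DNA synthesis 11 higher and 5 lower of 21, kinetochore, spindle and cytokinesis 29 higher and 3 lower of 39, ribosome biogenesis 17 higher and 7 lower of 27, sterol and fatty acid synthesis 19 higher and 0 lower of 21, scavenger and resident genes 3 higher and 17 lower of 23 and interferon response 0 higher and 10 lower of 14, beside 2618 higher and 2196 lower of 7644 over all genes.

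Dividing macrophages were larger libraries. They held a median of 37665 UMIs and 6935 genes per cell, against 26563 UMIs and 5674 genes with 1 or 2 UMIs of the pair and 20598 UMIs and 4931 genes at 0. In the fifth of macrophages with the fewest UMIs 20.3% were dividing, and in the fifth with the most 89.1%. A deeper cell reaches 3 UMIs more easily, so depth and division cannot be told apart by the rule alone. The comparison was therefore repeated with the macrophages at 0 weighted to the depths of dividing ones (10 depth bins, with at least 5 cells at 0 in each, worth 169 equally weighted cells). Its values are given beside each list. Of named genes, 88 were compared this way, and values are given where a call ended or a fold moved by over 1.5 times. DIAPH3, HMMR, KIF14, KIF4A, CHI3L1, INHBA, PDGFB, CCDC85A, CNKSR3, C15orf48, FCMR, IL2RG and TPRG1 were not among these, so how their folds depend on depth is not given. Scrublet called 154 members (11.2%) doublets, against 49 (8.06%) of those at 0. They were kept, and leaving them out is among the alternatives. The 3 libraries shared 15 to 21 barcodes by pairs. Of the members, 9 had a barcode that another day also held, and no cell was removed for this.

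The lists of S and G2/M genes, taken without MKI67 and TOP2A, separated the groups in most cells. The S list summed to a median of 2139 CPM per cell in dividing macrophages, 468 CPM in those with 1 or 2 UMIs and 397 CPM in those at 0. The G2/M list stood at 4132, 986 and 748 CPM in the same order. After every cell was thinned to 5000 UMIs, 82% of 1373 dividing macrophages kept at least 5 UMIs of the S list, against 9.64% of 591 at 0. For G2/M these were 94.2% and 35.2%, so the separation remained at equal depth. Not every member stood apart: 163 of 1375 (11.9%, exact interval 10.2 to 13.7%) had both lists at or below the level that holds 95% of the macrophages at 0. These were 42.9% of the 233 members with 3 to 5 UMIs of MKI67 and TOP2A and 5.52% of the 1142 with 6 or more.

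**Figure D1:**
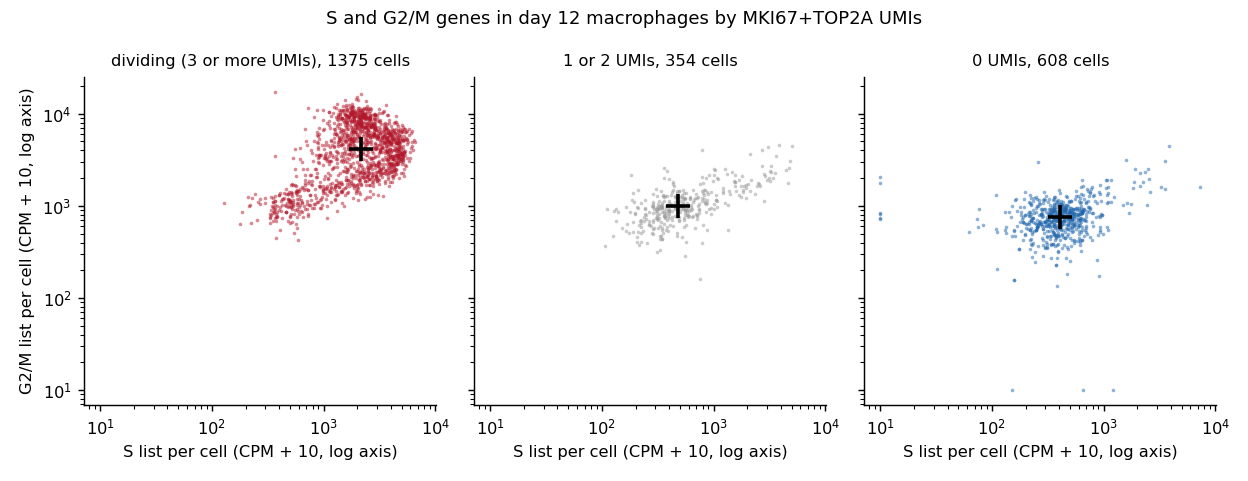
Summed S genes (horizontal) against summed G2/M genes (vertical) in every day 12 macrophage, in CPM plus 10 on log axes, for dividing macrophages (left), those with 1 or 2 UMIs of MKI67 and TOP2A (middle) and those at 0 (right). Each point is 1 cell and the cross marks the medians, which lie at 2139 and 4132 CPM in dividing macrophages and at 397 and 748 CPM in those at 0. A tail of dividing cells reaches down into the range of the macrophages at 0.

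Across all genes, 7644 reached 20 CPM in one of the groups compared. Of these, 1872 (24.5%) were at least 1.5-fold higher in dividing macrophages and 1011 (13.2%) at least 1.5-fold lower, with a median log2 fold of 0.15. After depth weighting 22% of the same genes were higher and 13.7% lower. Higher and lower below mean past that size, as a description of 1 library. Each list count of this comparison below is to be read against these shares. The genes with the largest folds in each direction are named below, each with what it is known to do where that is sure.

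The machinery that copies DNA was higher as a whole. All 15 measured genes of origin licensing and firing, all 21 of DNA synthesis at the fork, all 14 of fork repair and checkpoint and 19 of 20 of nucleotide supply were higher in dividing macrophages, against a background of 24.5% of all genes. The same counts held with the macrophages at 0 weighted to equal depth, except 18 higher and 0 lower for nucleotide supply. MCM10, which helps start forks at licensed origins, was at 32.4 CPM in dividing macrophages and 1.07 CPM in those at 0 (30.1-fold, 95% interval 18.2 to 54), a log2 fold of 4.91 that became 6.47 after depth weighting. CDC6, the loader of the replicative helicase, was 14.3-fold higher, and GINS1, a part of the active helicase, 10.5-fold higher. The clamp of the DNA polymerases, PCNA, was at 93.9 CPM in dividing macrophages and 14.8 CPM in those at 0. CLSPN, which carries the checkpoint signal at stalled forks, was at 92.2 CPM in dividing macrophages and 3.15 CPM in those at 0, and FEN1, the nuclease of lagging-strand fragments, was 11.8-fold higher. RRM2, the limiting subunit of the enzyme that makes deoxynucleotides, was at 119 CPM in dividing macrophages, 11.9 CPM in those with 1 or 2 UMIs and 4.01 CPM in those at 0. TYMS, which makes thymidylate, was 10.2-fold higher and TK1, which recovers thymidine, 11.8-fold higher, where weighting moved the log2 fold to 4.22 in place of 3.56. Among repair genes, BRCA1, which acts in the repair of DNA breaks, was 9.54-fold higher.

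New chromatin was covered by the same pattern. All 20 measured genes of chromatin assembly and packaging were higher, also after depth weighting. HMGB2, a DNA-bending protein abundant in cycling cells, was at 309 CPM in dividing macrophages, 47.5 CPM in those with 1 or 2 UMIs and 35.5 CPM in those at 0. UHRF1, which copies DNA methylation onto the new strand, was 11.3-fold higher, the histone chaperone ASF1B 9.22-fold (log2 fold 3.20, or 3.80 after depth weighting) and the lamin LMNB1 7.08-fold. HIST1H1B, a linker histone gene whose RNA mostly lacks a polyA tail, was at 50.1 CPM in dividing macrophages and 1.07 CPM in those at 0, with only 15 UMIs behind the lower value.

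Genes of mitosis were higher with a single exception. All 39 measured genes of kinetochore, spindle and cytokinesis, all 25 of mitotic cyclins, kinases and the APC/C ubiquitin ligase, and 13 of 14 of condensin and cohesin were higher, and depth weighting left these counts as they were. Named genes come from the 20 with the largest folds among genes with at least 50 CPM in the higher group. ASPM, a spindle pole protein, had the largest of these, at 88.9 CPM in dividing macrophages and 1.15 CPM in those at 0 (77.6-fold, 95% interval 47.7 to 136, from 4880 and 16 UMIs). CEP55, which builds the bridge severed at the end of cytokinesis, was 58.2-fold higher, DLGAP5, a spindle microtubule stabiliser, 53.6-fold, and the condensin subunit NCAPG 48.1-fold. UBE2C, the enzyme that passes ubiquitin to APC/C targets, was at 108 CPM in dividing macrophages, 5.8 CPM in those with 1 or 2 UMIs and 2.08 CPM in those at 0. CDC20, which activates the APC/C, was 40.5-fold higher, BUB1B, a spindle checkpoint kinase, 47.8-fold, and the cyclin CCNA2 34.7-fold. ANLN, a scaffold of the contractile ring, stood 48-fold higher. CENPF, a kinetochore protein, was at 194 CPM in dividing macrophages and 4.08 CPM in those at 0, and TPX2, which nucleates spindle microtubules, at 279 CPM in dividing macrophages and 7.09 CPM in those at 0. The remaining genes of the 20 with the largest folds were GTSE1, DIAPH3, HMMR, KIF14, KIF4A and CIT, at 30.8-fold to 45.1-fold, and the log2 fold of CIT was 4.95, or 5.54 after depth weighting. For each of these 20 genes the cells with 1 or 2 UMIs of the pair lay nearer to those at 0 than to the members in CPM.

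The promoters of 4 of the genes with the largest folds are shown because genes that peak in mitosis share known promoter elements: the cell cycle homology region, whose core is TTTGAA, and the CCAAT box bound by NF-Y. The core GCGGGAA of E2F sites marks many genes of S phase. Each window runs from 250 bases before to 50 bases after the annotated start, 5′ to 3′ on the strand of the gene, from RefSeq on GRCh38.p14, with matches to any of the 3 motifs on either strand in capitals and no overlap between motifs. They are ASPM (chr1:197146620-197146919, minus strand), CEP55 (chr10:93496362-93496661, plus strand), DLGAP5 (chr14:55191536-55191835, minus strand) and NCAPG (chr4:17810729-17811028, plus strand).

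ASPM: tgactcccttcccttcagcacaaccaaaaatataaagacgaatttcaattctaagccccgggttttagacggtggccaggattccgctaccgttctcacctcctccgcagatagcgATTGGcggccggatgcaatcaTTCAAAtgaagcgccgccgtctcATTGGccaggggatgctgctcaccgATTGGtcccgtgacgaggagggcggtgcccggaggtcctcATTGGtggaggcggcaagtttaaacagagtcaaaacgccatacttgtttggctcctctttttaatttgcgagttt

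CEP55: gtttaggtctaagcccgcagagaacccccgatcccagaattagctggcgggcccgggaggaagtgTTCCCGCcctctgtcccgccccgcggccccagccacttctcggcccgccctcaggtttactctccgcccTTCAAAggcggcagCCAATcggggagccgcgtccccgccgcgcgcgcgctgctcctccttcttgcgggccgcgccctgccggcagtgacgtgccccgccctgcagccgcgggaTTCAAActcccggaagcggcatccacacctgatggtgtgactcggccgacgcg

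DLGAP5: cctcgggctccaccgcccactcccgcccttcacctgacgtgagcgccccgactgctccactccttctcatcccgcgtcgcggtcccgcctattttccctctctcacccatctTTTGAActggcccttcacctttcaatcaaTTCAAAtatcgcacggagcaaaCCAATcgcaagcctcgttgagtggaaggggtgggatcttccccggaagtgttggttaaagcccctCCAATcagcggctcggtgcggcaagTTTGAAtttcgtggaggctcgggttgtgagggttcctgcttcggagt

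NCAPG: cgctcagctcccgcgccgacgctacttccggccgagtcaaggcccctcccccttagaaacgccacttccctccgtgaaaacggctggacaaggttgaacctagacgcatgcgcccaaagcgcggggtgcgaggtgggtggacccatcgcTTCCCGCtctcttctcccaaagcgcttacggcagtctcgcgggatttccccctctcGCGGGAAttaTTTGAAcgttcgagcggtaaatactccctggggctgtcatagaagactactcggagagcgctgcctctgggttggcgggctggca

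TTTGAA was matched in each of the 4, once in ASPM and NCAPG, 2 times in CEP55 and 3 times in DLGAP5, and CCAAT in all but NCAPG. GCGGGAA was matched 2 times in NCAPG and once in CEP55. Of the 20 genes with the largest folds, 17 had promoters in the table, 19 in all with alternative entries. TTTGAA was in 68.4% of these, against 15.2% of all 35116 promoters, and CCAAT in 78.9% against 34.6%. Over the wider set of 432 genes at least 2-fold higher with at least 50 CPM, TTTGAA was in 16% of 512 promoters, CCAAT in 49.8% and GCGGGAA in 14.5%, the last against 6.55% of all promoters. The match to the homology region was thus common among the top genes and at the background share in the wider set. A match is a description of letters and not of a bound site.

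Regulators of entry into the cycle differed less than the machinery. Of 10 measured G1 cyclin, E2F and pocket protein genes 5 were higher and 1 lower, and 3 higher and 1 lower after depth weighting. RBL1, a pocket protein itself made in S phase, was 4.52-fold and the G1 kinase CDK4 2.55-fold higher. CCND2, a D-type cyclin, was lower, at 30.2 CPM in dividing macrophages and 67.2 CPM in those at 0. Inhibitors of the cycle went the other way: 7 of 11 measured CDK inhibitor and arrest genes were lower and none higher, against a background of 13.2%. CDKN1C, which encodes the CDK inhibitor p57, was at 97.8 CPM in dividing macrophages, 135 CPM in those with 1 or 2 UMIs and 235 CPM in those at 0, a log2 fold of -1.27 that became -1.95 after depth weighting. The growth-arrest gene BTG1 was 2.6-fold lower and GADD45G, a stress-induced arrest gene, 3.94-fold lower. With depth-weighted macrophages at 0 the list had 0 higher and 4 lower.

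Growth and self-renewal regulators were mixed, with 5 of 17 higher and 4 lower, against 24.5% and 13.2% of all genes. LIN28B, an RNA-binding protein of fetal cells, was at 111 CPM in dividing macrophages and 49 CPM in those at 0, and HMGA1, a chromatin protein of growing and fetal cells, at 427 CPM in dividing macrophages, 269 CPM in those with 1 or 2 UMIs and 206 CPM in those at 0. MYC was 1.56-fold higher at a low level, 42 CPM in dividing macrophages and 27 CPM in those at 0, and its log2 fold of 0.64 was under 1.5-fold after depth weighting, at 0.57, and with at least 20 or 50 macrophage UMIs required. KLF2, a factor of quiescent cells, was at 32.3 CPM in dividing macrophages and 90 CPM in those at 0, and KLF4 at 16.4 CPM in dividing macrophages and 26.2 CPM in those at 0, which no longer passed 1.5-fold after depth weighting (log2 fold -0.33). After depth weighting the list had 3 higher and 4 lower, against 22% and 13.7% of all genes. CSF1R, the receptor for the main survival and growth signal of macrophages, was lower in the dividing cells, at 204 CPM in dividing macrophages, 301 CPM in those with 1 or 2 UMIs and 436 CPM in those at 0 (2.14-fold lower, 95% interval 2.07 to 2.2). IL3RA, the IL-3 receptor chain, was at 39.5 CPM in dividing macrophages and 136 CPM in those at 0, with a log2 fold of -1.79, or -1.18 after depth weighting. Of 5 measured colony-stimulating factor receptor genes 4 were lower and none higher, but after depth weighting 1 was lower, and the log2 fold of CSF1R was -0.54 in place of -1.09.

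Genes of ribosome biogenesis, heat shock chaperones and lipid synthesis were mostly higher. All 27 measured ribosome biogenesis genes were higher, with a median log2 fold of 1.31, and 25 were after depth weighting. NOP16, a factor of the large subunit, was 4.3-fold higher, and NOLC1, a nucleolar chaperone of small nucleolar particles, was at 73.6 CPM in dividing macrophages and 19.3 CPM in those at 0. DKC1, which modifies ribosomal RNA, was 3.22-fold higher. The ribosomal proteins themselves did not follow, with 1 of 77 higher, none lower and a median log2 fold of 0.09, which depth weighting turned to -0.05 with the same counts. Heat shock chaperones were higher in 9 of 11, with or without depth weighting. HSP90AA1, the inducible HSP90, was at 1843 CPM in dividing macrophages, 903 CPM in those with 1 or 2 UMIs and 564 CPM in those at 0, HSPH1, an exchange factor of HSP70, was 4.93-fold higher, and the mitochondrial chaperonin HSPD1 was 3.4-fold higher. Of 21 sterol and fatty acid synthesis genes 19 were higher, and 18 after depth weighting. FASN, fatty acid synthase, was at 89.3 CPM in dividing macrophages, 56.1 CPM in those with 1 or 2 UMIs and 22 CPM in those at 0, and ACACA, which supplies its substrate, was 3.09-fold higher. Of 11 genes of unfolded protein and amino acid stress 6 were higher and 2 lower, and 5 higher and 2 lower after depth weighting, when the median log2 fold was 0.30 in place of 0.87. Among them PSAT1, of serine synthesis, was 8.16-fold higher, at 32.2 CPM in dividing macrophages and 3.94 CPM in those at 0.

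No glycolysis gene of 17 measured was higher and 5 were lower, among them the glucose transporter SLC2A1 (42.6 CPM in dividing macrophages and 83.8 CPM in those at 0; log2 fold -0.98, or -1.86 after depth weighting) and HK2, hexokinase 2, 1.94-fold lower. Depth weighting left 1 higher and 2 lower of 17, against 22% and 13.7% of all genes, a median log2 fold of 0.03 in place of -0.37, and a log2 fold of -0.12 for HK2. Of 25 nuclear genes of the respiratory chain 12 were higher and none lower, against 24.5% of all genes, and 7 were higher after depth weighting, against 22% of all genes. The largest fold among them was in CYCS, cytochrome c, at 389 CPM in dividing macrophages and 143 CPM in those at 0. Of 13 respiratory genes encoded in mitochondria 1 was higher and none lower, with or without depth weighting, and the median share of mitochondrial UMIs was 5.23% in dividing macrophages and 4.23% in those at 0.

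**Figure D2:**
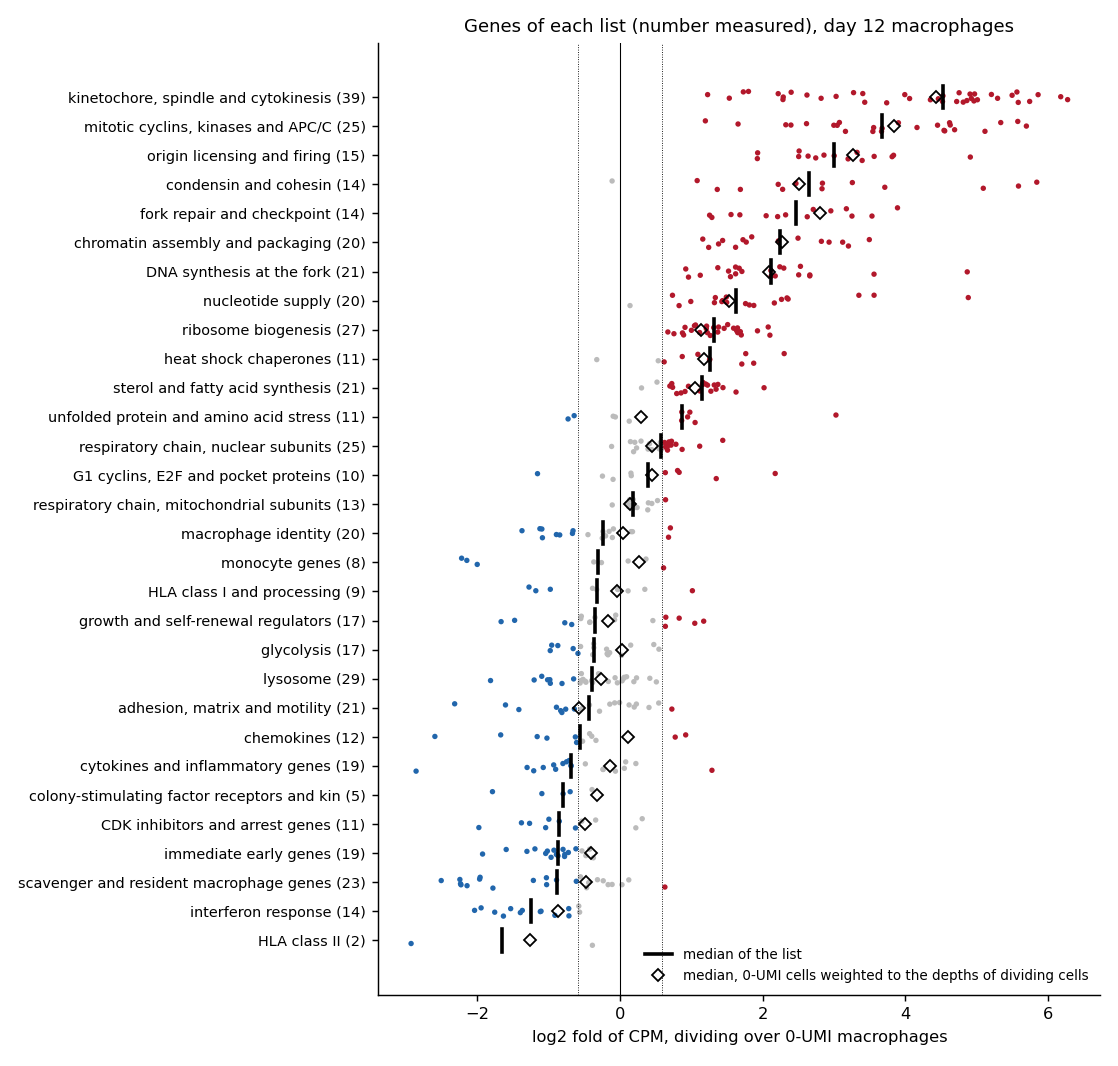
Each row is a list of genes with its number of measured members, and each point a gene at its log2 fold of pooled CPM in dividing macrophages over macrophages at 0 (red at least 1.5-fold higher, blue at least 1.5-fold lower, grey between, dotted lines at 1.5-fold). Bars mark medians and diamonds the medians after depth weighting. Lists of mitosis and DNA replication lie at the top, ribosome biogenesis, chaperones and lipid synthesis below them, and scavenger, interferon and HLA class II genes at the bottom. The diamonds of macrophage identity, monocyte genes, glycolysis and chemokines lie on the other side of 0 from their bars.

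Scavenger and resident macrophage genes were lower in 13 of 23 measured and higher in 1, against 13.2% of all genes lower. After depth weighting the list had 1 higher and 10 lower, against 13.7% of all genes lower. SPP1, or osteopontin (ENSG00000118785, chromosome 4, 87975714 to 87983411), was the most abundant of them, at 5276 CPM in dividing macrophages, 15269 CPM in those with 1 or 2 UMIs and 23317 CPM in those at 0 (4.42-fold lower, 95% interval 4.4 to 4.44). Per cell its median was 2940 CPM in dividing macrophages, with quartiles of 843 and 7827, against 19818 CPM at 0, with quartiles of 7462 and 36758, so the quartile ranges met only at their edges. APOE, the lipid carrier, was at 59.8 CPM in dividing macrophages, 134 CPM in those with 1 or 2 UMIs and 339.9 CPM in those at 0, and its partner APOC1 was 4.69-fold lower. TREM2, a lipid-sensing receptor, was at 54.4 CPM in dividing macrophages, 152 CPM in those with 1 or 2 UMIs and 258 CPM in those at 0. LPL, lipoprotein lipase, had the largest fold among the lower genes with at least 50 CPM in those at 0, at 6.58 CPM in dividing macrophages and 72.2 CPM in those at 0 (11-fold, 95% interval 9.72 to 12.4). CD9, a tetraspanin, was 8.09-fold lower, IL4I1, a secreted amino acid oxidase, 8.84-fold, and FCGR2B, the inhibitory Fc receptor, 7.38-fold. The log2 fold of FCGR2B was -2.88, or -1.51 after depth weighting. The secreted proteins CHI3L1 and A2M, the growth factor genes INHBA and PDGFB and the cell cycle regulator RGCC were 5.35-fold to 7.53-fold lower. The remaining genes of the 20 furthest down were RAMP1, CCDC85A, CNKSR3, C15orf48, AREG, FCMR, IL2RG, CXCL16, TPRG1 and YPEL3, at 5.21-fold to 10.7-fold lower, and weighting moved YPEL3 to a log2 fold of -1.75 in place of -2.38.

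General macrophage identity was less affected than the scavenger and resident list. Of 20 measured identity genes other than the rule's, 8 were lower and 2 higher, against 13.2% and 24.5% of all genes. After depth weighting 3 were higher and 1 lower, against 22% and 13.7% of all genes, and the median log2 fold was 0.05 in place of -0.24. TYROBP, the adaptor that signals for TREM2, was at 586 CPM in dividing macrophages, 1067 CPM in those with 1 or 2 UMIs and 1518 CPM in those at 0, and the Fc receptor FCGR3A at 149 CPM in dividing macrophages and 324 CPM in those at 0, no longer past 1.5-fold after depth weighting (log2 fold -0.43). CX3CR1, the fractalkine receptor, was higher, at 63.2 CPM in dividing macrophages and 38.7 CPM in those at 0, and just under 1.5-fold when at least 50 macrophage UMIs were required (log2 fold 0.58). Of 29 lysosomal genes 8 were lower and none higher (7 lower after depth weighting), with the acid lipase LIPA at 112 CPM in dividing macrophages and 395 CPM in those at 0 and the protease CTSD at 305 CPM in dividing macrophages and 703 CPM in those at 0. HLA-E was 2.42-fold lower, and 3 of 9 genes of HLA class I and processing were lower and 1 higher, and 2 higher and 2 lower after depth weighting. Of 2 measured HLA class II genes 1 was lower and none higher, also after depth weighting. Tissue inhibitor TIMP1 was at 300.4 CPM in dividing macrophages, 808 CPM in those with 1 or 2 UMIs and 1498 CPM in those at 0, in a list of adhesion, matrix and motility genes with 8 of 21 lower and 1 higher, and 2 higher and 10 lower after depth weighting.

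**Figure D3:**
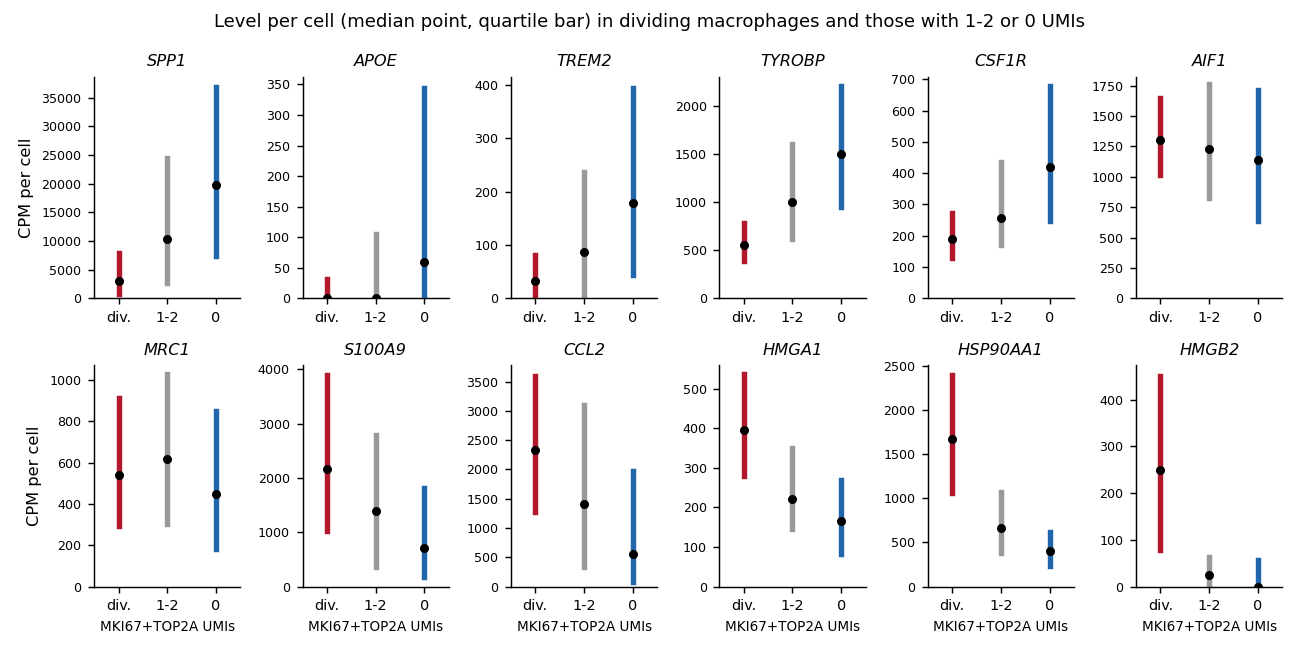
Median (point) and quartiles (bar) of CPM per cell for 12 genes in dividing macrophages (div.), in those with 1 or 2 UMIs of MKI67 and TOP2A and in those at 0. SPP1, TREM2, TYROBP and CSF1R have lower medians in dividing macrophages, S100A9, CCL2, HMGA1, HSP90AA1 and HMGB2 higher ones, and AIF1 and MRC1 overlap throughout.

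Inflammatory genes did not move as one. S100A9, an alarmin of monocytes and neutrophils, was at 2661 CPM in dividing macrophages, 2184 CPM in those with 1 or 2 UMIs and 1741 CPM in those at 0, and CCL2, the attractant of monocytes, at 2517 CPM in dividing macrophages, 1928 CPM in those with 1 or 2 UMIs and 1329 CPM in those at 0 (1.89-fold higher, 95% interval 1.87 to 1.92). Depth weighting widened both, to a log2 fold of 1.01 for S100A9 and 1.14 for CCL2, while S100A9 missed 1.5-fold when cells were averaged or thinned (lowest log2 fold 0.53). Granulocyte progenitor markers were also higher in the pooled members, as given above, with per-cell medians of 41.1 CPM in dividing macrophages and 46.7 CPM in those at 0, and their part in S100A9 was not tested. S100A9 belongs to a list of 8 measured monocyte genes, of which 1 was higher and 3 lower, but 3 higher and 3 lower after depth weighting, when the median log2 fold was 0.27 in place of -0.31. Of these, VCAN, a matrix proteoglycan, was 4.66-fold lower (log2 fold -2.22, or -1.26 after depth weighting), CD52, a surface glycoprotein, 4-fold lower (log2 fold -1.32 after weighting) and EREG, an epidermal growth factor receptor ligand, 4.43-fold lower (log2 fold -2.56 after weighting). Of 12 chemokines 6 were lower and 2 higher, among them CXCL16 at 12.4 CPM in dividing macrophages and 74.9 CPM in those at 0, but 2 higher and 2 lower after depth weighting, when the median log2 fold was 0.12 in place of -0.57. Of 19 cytokines and inflammatory genes 11 were lower and 1 higher, and 1 higher and 5 lower after depth weighting. AREG, a ligand of the same receptor as EREG, was at 13.4 CPM in dividing macrophages and 97.2 CPM in those at 0, and ICAM1, an adhesion receptor, at 171 CPM in dividing macrophages and 396 CPM in those at 0. Immediate early genes, switched on rapidly by stimuli that include the dissociation of tissue, were lower in 15 of 19 and higher in none, and 0 higher and 8 lower after depth weighting. EGR3 was at 28 CPM in dividing macrophages, 59.6 CPM in those with 1 or 2 UMIs and 106 CPM in those at 0, a log2 fold of -1.93 that became -0.88 after depth weighting, and JUNB at 332 CPM in dividing macrophages and 683 CPM in those at 0, a log2 fold of -1.04 that became -0.58. Interferon response genes were lower in 12 of 14 and in 10 after depth weighting, with IFI6 at 58.3 CPM in dividing macrophages, 112 CPM in those with 1 or 2 UMIs and 225 CPM in those at 0 and OAS1 at 9.31 CPM in dividing macrophages and 38.3 CPM in those at 0.

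Pooled levels changed in steps with the UMIs of MKI67 and TOP2A, also below the threshold. Pooled levels do not show whether single cells change gradually or the mix of cells changes, which was not tested. SPP1 stood at 23317, 17292, 11981 and 8927 CPM in cells with 0, 1, 2 and 3 UMIs of the pair, and at 5276 CPM over all members. The G2/M list stood at 787, 1031, 1276 and 1580 CPM in the same order, and at 4928 CPM over all members. Median depth was 20598, 25611, 27951 and 28894 UMIs in the same order, and its part in these steps was not tested. Members whose phase lists were low, as above, held SPP1 at 9037 CPM and the rest at 4829 CPM. The macrophage rule genes did not follow that order, at 2852 CPM with 3 UMIs and 2578 CPM with 0.

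Members were then ordered by the share of G2/M genes in their summed phase UMIs and divided into 3 ranges of equal size, called S-leaning, middle and G2/M-leaning. These are ranges of a continuous share and not types, and 574 members lay within 0.05 of a boundary. Members with both phase lists low were kept. In macrophages at 0 the pooled G2/M list (787 CPM) also exceeded the S list (464 CPM), so a high share alone does not place a cell in G2/M. The summed UMIs of MKI67 and TOP2A had medians of 12, 12.5 and 46 in the S-leaning, middle and G2/M-leaning ranges. The summed genes of origin licensing and firing had medians per cell of 1309, 669.7 and 604 CPM in the S-leaning, middle and G2/M-leaning ranges, against 104 CPM at 0. Mitotic cyclin, kinase and APC/C genes stood at 1068, 1537 and 3199 CPM in the S-leaning, middle and G2/M-leaning ranges, against 185 CPM at 0. These follow from the ordering. Some lists outside the cycle changed little across the ranges, but not all did. Sterol and fatty acid synthesis stood at 3119, 3020 and 3053 CPM in the S-leaning, middle and G2/M-leaning ranges, against 1059 CPM at 0. The lysosome list stood at 6726, 6811 and 6742 CPM in the S-leaning, middle and G2/M-leaning ranges, against 9627 CPM at 0. As pooled levels, SPP1 was at 5227, 5616 and 4990 CPM in the S-leaning, middle and G2/M-leaning ranges, against 23317 CPM at 0, and TYROBP at 585, 584 and 589 CPM in the S-leaning, middle and G2/M-leaning ranges, against 1518 CPM at 0. Among lists outside the cycle, cytokines and inflammatory genes had the widest ratio between ranges, at 5014, 5154 and 2968 CPM in the S-leaning, middle and G2/M-leaning ranges, against 7335 CPM at 0. Doublet calls were 59, 51 and 44 in the 3 ranges.

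**Figure D4:**
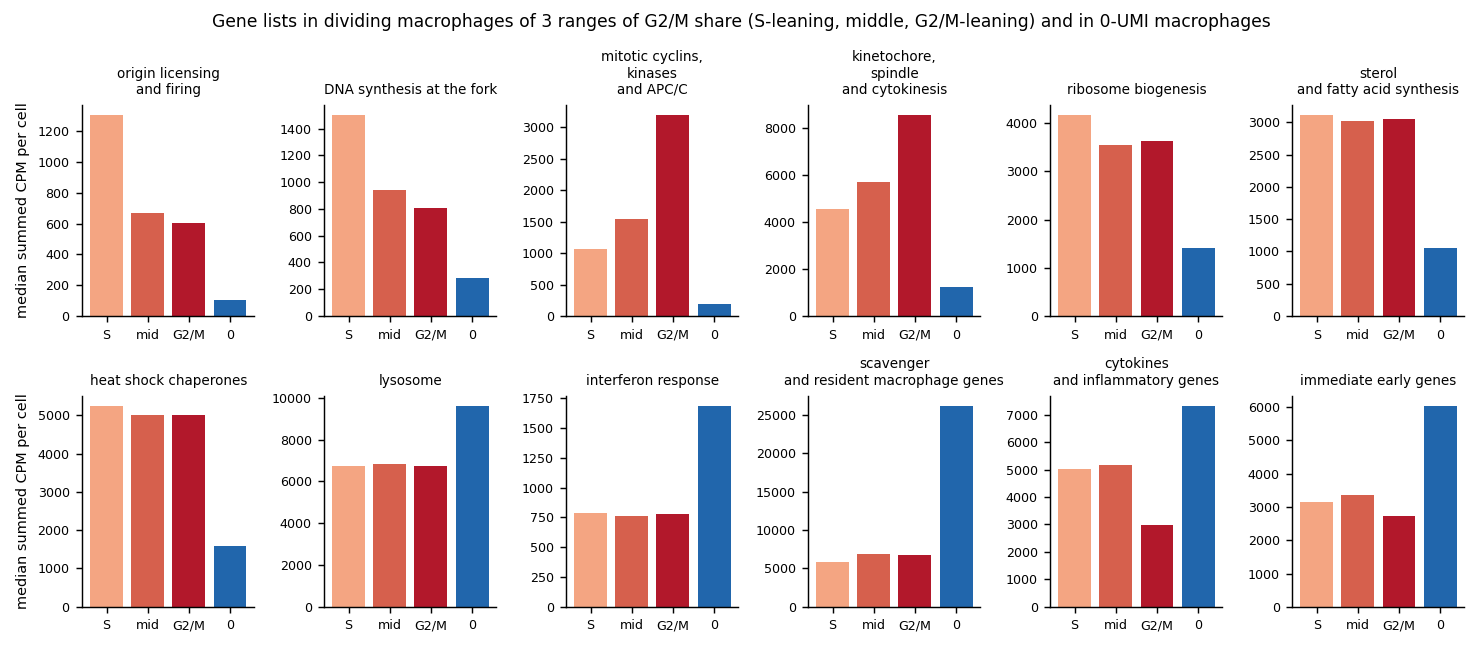
Median summed CPM per cell of 12 gene lists in dividing macrophages of 3 ranges of G2/M share (S-leaning, middle and G2/M-leaning, in reds) and in macrophages at 0 (blue), each panel with its own axis from 0. Replication lists fall and mitotic lists climb across the ranges by construction, while chaperones, lipid synthesis, lysosome, interferon and scavenger genes are nearly level in the 3 ranges and stand apart from the macrophages at 0. Cytokines and inflammatory genes are not level and are lowest in the G2/M-leaning range.

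The same rule was applied to the earlier days. At day 7, 0 of 6767 cells met the macrophage rule, which allows a share of up to 0.0443%. At day 9, 64 of 11727 did, and 50 of these were dividing (78.1%, exact interval 66 to 87.5%). At day 12 the share was 58.8% (56.8 to 60.8%). These shares depend on depth. Macrophages of day 9 had a median of 31230 UMIs and those of day 12 31516, and after every cell was thinned to 5000 UMIs before the rule the shares were 25% of 12 macrophages at day 9 and 30.3% of 1930 at day 12. No order between the days can be read from 12 cells. Cells outside the macrophage rule with at least 3 UMIs of MKI67 and TOP2A were 27.5%, 25.9% and 14.4% at days 7, 9 and 12. Macrophages made up 62.9% of all cells past that threshold at day 12 and 1.63% at day 9. Median depth of the cells outside the rule was 24562, 13207 and 14066 UMIs at days 7, 9 and 12. Neither their shares nor the macrophage part of all cells past the threshold was taken at equal depth, so these values cannot be ordered between days or cell types. In dividing macrophages ASPM was at 114 CPM at day 9 and 88.9 CPM at day 12. Levels of other genes lay further apart, with SPP1 (1323 CPM at day 9 and 5276 CPM at day 12), S100A9 (655 and 2661 CPM), TYROBP (191 and 586 CPM) and CCL2 (264 and 2517 CPM). The macrophage identity list also summed to 2643 CPM in dividing macrophages at day 9 and 6283 CPM at day 12. At least 20 macrophage UMIs were held by 21 of the 64 macrophages of day 9, against 2045 of 2337 at day 12. The part of this nearness to the macrophage threshold in the levels of day 9 was not tested. The days are single libraries, and a difference between them cannot be told apart from one between libraries.

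Cells rich in collagen RNA in the same library allowed the same contrast outside macrophages. At least 3 UMIs of MKI67 and TOP2A were held by 296 of these cells that did not meet the macrophage rule, and 2836 were at 0. Median depth was 22763 UMIs in the dividing and 13708 UMIs in those at 0, and this contrast was not weighted for depth. Of the 7644 genes, 22.3% were higher and 4.09% lower in the dividing collagen-rich cells, beside 24.5% and 13.2% in macrophages. These genes had to reach 20 CPM in a group of macrophages, and no level was required in collagen-rich cells. The shares and list counts of macrophages and collagen-rich cells are therefore not like for like. Genes of kinetochore, spindle and cytokinesis were higher with division in 39 of 39 in both, with a median log2 fold of 4.52 in macrophages and 4.99 in collagen-rich cells. Sterol and fatty acid synthesis was higher in 19 of 21 in macrophages and 16 in collagen-rich cells. Ribosome biogenesis was higher in all 27 in macrophages (25 after depth weighting) and 7 in collagen-rich cells, a count near the share of all genes there, with medians of 1.31 and 0.44. Interferon response genes were lower in 12 of 14 in macrophages (10 after depth weighting) and 4 in collagen-rich cells. Immediate early genes were lower in 15 of 19 in macrophages (8 after depth weighting) and 3 in collagen-rich cells. Both counts in collagen-rich cells were above the 4.09% of all genes lower there. With 1 library these contrasts between cell types were not tested.

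Bulk RNA of separate libraries gave a measurement that the choice of cells did not use. The 432 genes at least 2-fold higher in dividing macrophages with at least 50 CPM, and the 243 genes at least 2-fold lower by the same measure (a list chosen after seeing the data), were followed in TPM (transcript abundance scaled to the same total in each library) with limma on log2(TPM + 1) and Benjamini-Hochberg adjustment over all genes tested. In bulk samples fewer dividing cells and less RNA per cell cannot be told apart. Other cells of the culture, which divide as well, may also be in them.

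In 3D day 12 cultures 133 of 430 raised genes were higher and 62 lower than in 2D day 12 cultures, where 13% of all 13131 genes tested were higher and 24.7% lower. The median change of the raised genes was 0.24 on the log2 scale, against -0.21 for all genes. Median-ratio scaling of the libraries moved the median of all genes to -0.05 and the raised genes to 41.9% higher and 8.84% lower, against 30.9% and 14.4% as deposited. Yet the genes of the rule itself went the other way. MKI67 had 17.4, 23.5, 16.6 and 18.6 TPM in the 3D libraries, against 29.8, 29, 38.3 and 26.4 TPM in 2D (log2 change -0.67 ± 0.18 (SE), adjusted p = 0.0213). TOP2A had 97.3, 66, 33 and 70.3 TPM in 3D, against 197, 194, 179 and 182 TPM in 2D (log2 change -1.58 ± 0.30 (SE), adjusted p = 0.00437). All 3D libraries lay below all 2D libraries for both. The call for MKI67 was lost after median-ratio scaling (log2 change -0.47, adjusted p = 0.0819 with limma) and without 3D replicate 1 (adjusted p = 0.053) or 3 (adjusted p = 0.0611). For UBE2C the groups overlapped, at 297, 210.1, 289 and 284 TPM in 3D and 246, 193, 269 and 195 TPM in 2D (log2 change 0.26 ± 0.19 (SE), adjusted p = 0.322). ASPM averaged 3.62 ± 1.04 TPM in 3D and 4.53 ± 0.898 TPM in 2D, CEP55 6.62 ± 1.95 and 6.87 ± 1.63 TPM and DLGAP5 6.22 ± 2.03 and 5.46 ± 0.716 TPM (SD, n = 4 each), and none of the 3 passed the test. By role, raised genes of nucleotide supply had 7 higher and 0 lower of 11 in 3D, ribosome biogenesis 7 higher and 2 lower of 13, heat shock chaperones 4 higher and 0 lower of 7, kinetochore and spindle 4 higher and 2 lower of 25 and sterol and fatty acid synthesis 1 higher and 5 lower of 11.

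Later 3D cultures had less of the raised genes. At day 16, 240 of 431 were lower than at day 12 and 6 higher, where 10.3% of all 12795 genes were lower and 16% higher. At day 19, 187 were lower and 2 higher (all genes 9.94% and 10.2%), and at day 23, 302 were lower and 12 higher (all genes 22% and 15%). The median changes were -0.84, -0.69 and -1.16 on the log2 scale, against 0.18, 0.04 and -0.12 for all genes. The 3 comparisons share the day 12 libraries.

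MKI67, TOP2A, UBE2C and CEP55 had their lowest means at day 16. UBE2C had 7.42, 8.85 and 22.7 TPM at day 16, 81.8, 142 and 116 at day 19 and 37.1, 68.6 and 62.2 at day 23, beside the day 12 values above. Every later library lay below every day 12 library, with log2 change -4.42 ± 0.36 (SE), adjusted p = 6.91e-06 at day 16, log2 change -1.27 ± 0.36 (SE), adjusted p = 0.0261 at day 19 and log2 change -2.28 ± 0.36 (SE), adjusted p = 0.000444 at day 23. The day 19 call was lost without day 12 replicate 1, 3 or 4 or day 19 replicate 1 or 3, with adjusted p = 0.0554 to 0.1 (limma). MKI67 had 2.15, 1.16 and 4.75 TPM at day 16 (log2 change -2.55 ± 0.32 (SE), adjusted p = 0.000178), 11.5, 14 and 20.3 at day 19 and 10.4, 9.15 and 15.2 at day 23, and days 19 and 23 did not pass the test (adjusted p = 0.532 and 0.115 with limma). TOP2A had 2.91, 10.1 and 5.42 TPM at day 16 (log2 change -3.28 ± 0.47 (SE), adjusted p = 0.000446), 30.4, 55.2 and 112 at day 19 and 69.7, 53.1 and 66.8 at day 23, where it overlapped day 12 (adjusted p = 0.902 at day 19 and 0.989 at day 23 with limma). CEP55 averaged 0.977 ± 0.32 TPM at day 16, 5.7 ± 1.24 at day 19 and 2.18 ± 0.891 at day 23 (SD, n = 3 each), against 6.62 ± 1.95 TPM at day 12 (SD, n = 4), and fell at day 16 (log2 change -1.92 ± 0.26 (SE), adjusted p = 0.000306) and day 23 (log2 change -1.26 ± 0.26 (SE), adjusted p = 0.00297). By role, mitotic cyclins, kinases and APC/C had 0 higher and 18 lower of 19 at day 16, 0 higher and 12 lower of 19 at day 19 and 0 higher and 19 lower of 19 at day 23. Kinetochore and spindle genes had 0 higher and 24 lower of 25, 0 higher and 4 lower of 25 and 0 higher and 18 lower of 25 on the same days, and ribosome biogenesis 0 higher and 6 lower of 13, 0 higher and 9 lower of 13 and 0 higher and 9 lower of 13.

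**Figure D5:**
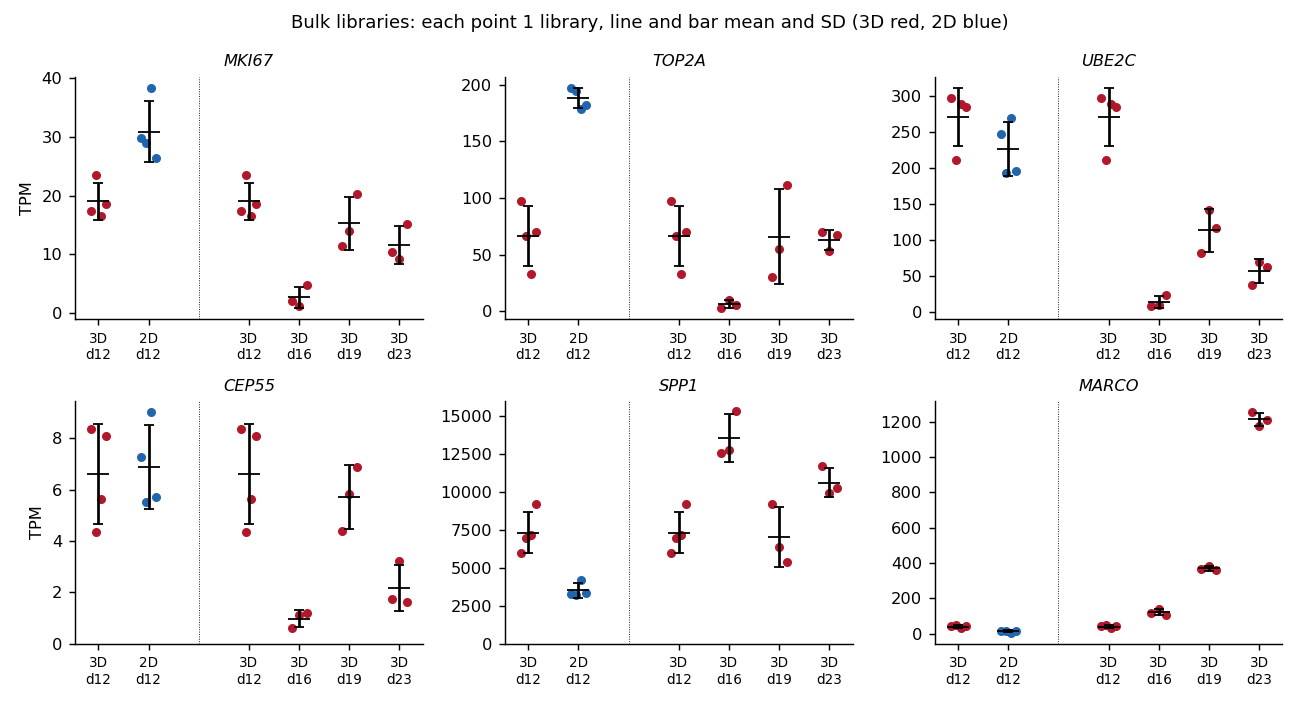
TPM of 6 genes in each bulk library (points), with the mean and SD of each group, for 3D day 12 beside 2D day 12 (left of the dotted line) and for 3D days 12, 16, 19 and 23 (right). MKI67 and TOP2A lie lower in 3D than in 2D at day 12, all 4 cycle genes are lowest at day 16, and MARCO climbs to 1213 ± 37.4 TPM (SD, n = 3) at day 23.

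Genes lower in dividing macrophages had larger shares of calls in both directions than all genes at days 16 and 19, which is a description with no test. Of 225 measured, 99 (44%) were higher and 36 (16%) lower at day 16 than at day 12, against 16% and 10.3% of all genes. At day 19 63 (28%) were higher and 49 (21.8%) lower, against 10.2% and 9.94%. At day 23 75 (33.3%) were higher and 43 (19.1%) lower, against 15% and 22%. Between 3D and 2D at day 12 they were split, with 51 (23.5%) higher and 68 (31.3%) lower of 217, against 13% and 24.7% of all genes.

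SPP1 did not climb steadily with time. It had 12510, 12716 and 15310 TPM at day 16, 9194, 6383 and 5403 at day 19 and 11679, 9896 and 10207 at day 23, against 5940, 6919, 7180 and 9170 TPM at day 12. It passed the test at day 16 (log2 change 0.90 ± 0.22 (SE), adjusted p = 0.0106 with limma) but not at day 19 (log2 change -0.08 ± 0.22 (SE), adjusted p = 0.843) or day 23 (log2 change 0.55 ± 0.22 (SE), adjusted p = 0.0697). The day 23 call was gained with a mean of 5 TPM required (adjusted p = 0.0459), after median-ratio scaling (adjusted p = 0.0138) and without day 12 replicate 4 (adjusted p = 0.0382, all limma). At day 12 SPP1 was higher in 3D than in 2D, where it had 3297, 3185, 4212 and 3320 TPM (log2 change 1.05 ± 0.19 (SE), adjusted p = 0.00331). APOE had 59.8, 124 and 97.8 TPM at day 16 (log2 change 1.27 ± 0.30 (SE), adjusted p = 0.0083), 30.8, 29.9 and 41.8 at day 19 (log2 change -0.11 ± 0.30 (SE), adjusted p = 0.842) and 297, 229 and 226 at day 23 (log2 change 2.73 ± 0.30 (SE), adjusted p = 3.63e-05), against 33.7, 36.8, 25.6 and 56 TPM at day 12. It was thus higher at days 16 and 23 and overlapped day 12 at day 19. In 2D day 12 it had 271, 236, 276 and 366 TPM, above all 3D day 12 libraries (log2 change -2.92 ± 0.26 (SE), adjusted p = 0.000175 in 3D over 2D). MARCO, a scavenger receptor that was at 78.6 CPM in dividing macrophages and 308 CPM in those at 0, averaged 121 ± 17.5 TPM at day 16, 369 ± 12.2 at day 19 and 1213 ± 37.4 at day 23 (SD, n = 3 each), against 39.4 ± 6.75 TPM at day 12 (SD, n = 4), with log2 change 1.60 ± 0.18 (SE), adjusted p = 9.2e-05 at day 16, log2 change 3.21 ± 0.18 (SE), adjusted p = 6.09e-07 at day 19 and log2 change 4.93 ± 0.18 (SE), adjusted p = 6.21e-09 at day 23. SPP1, APOE and MARCO were chosen after their values were seen.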

How the data were processed

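The authors deposited UMI counts per gene and cell for 3 10x libraries, made with Cell Ranger 7.1.0 (days 7 and 9) and 7.0.0 (day 12) per the file headers, and TPM per gene for bulk SMART-seq2 libraries, as the authors computed them. The submitters' processing notes name hg38 and GRCh38, Trim Galore 0.4.4, HISAT2 and HTSeq 0.11.1. Chromatin files were not used.

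Counts were pooled per group and divided by their total to give CPM. Folds carry 95% exact intervals, and genes needed 20 CPM in a group. The 20 genes furthest up and down with at least 50 CPM are named, then up to 5 leading members of each list and those needed to explain it. Doublets were called with Scrublet in scanpy 1.11.5 (expected rate 0.06). Bulk TPM were tested with limma 3.58.1 on log2(TPM + 1) for genes with a mean of at least 1 TPM, at a Benjamini-Hochberg threshold of 0.05, in 1 fit of 3D and 2D day 12 and 1 fit of 3D days 12, 16, 19 and 23. Other libraries of the series were left out. Both procedures were tested on simulated data. The members and gene lists were chosen with earlier results of these data known. Alternatives covered doublets, depth, thresholds, pseudocount, low-value filters, scaling, single libraries and the replicate block.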

Additional observations from a re-analysis of the deposited data

Results flagged for a closer look

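Of 18 groups of 4 bulk libraries examined, 2 held a library far from the others, where chance gives about 1 in 20 groups. UBE2C was at 210.13 TPM in the lowest 3D day 12 library and 284.45 to 297.41 TPM in the other 3. SPP1 was at 4212.48 TPM in the highest 2D day 12 library and 3185.18 to 3319.81 TPM in the other 3.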

How the results depend on the processing

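Without cells that held 3 or more UMIs of another cell type list, 10 dividing macrophages and 10 at 0 remained. In these cells 7964 genes reached 20 CPM, a set other than the 7644 used above, with 2778 higher and 2563 lower. The dividing share was 40% of 25 macrophages. At 50 CPM or more 993 genes were higher and 563 lower, and at 2-fold 818 and 457. The day 12 share was 62.2% and 66.6% with at least 20 and 50 macrophage UMIs, and after thinning 30.3% at day 12 and 25% at day 9. Day 7 gave no share, having no macrophages. Leaving out doublets, per-cell means, a 10% mitochondrial limit, 6 UMIs for members and the collagen filter kept both gene counts within 1.5 times. Of 88 genes compared, depth weighting moved the fold of 14 by over 1.5 times, as given beside them, and other alternatives that of 15, none with a change of sign. The filter on other cell type lists left too few cells and was not applied to these genes, so it is not covered by that statement. With at least 50 macrophage UMIs the log2 fold was 6.66 for ANLN, 6.69 for CEP55 (6.49 with 20), 5.60 for MCM10, -1.19 for CD52 and -2.06 for FCGR2B. After thinning it was 6.88 for ASPM, 4.56 for CDC6, 7.23 for CIT, 4.52 for GTSE1, 6.57 for MCM10 and 4.53 for UBE2C, and by per-cell means 4.43 for CCNA2, 4.79 for GTSE1, 4.43 for HIST1H1B and 4.93 for UBE2C. Without doublets it was -3.30 for APOE, -2.03 for CDKN1C and -4.05 for RAMP1, and without collagen-rich cells -3.77, -2.48 and -4.06 in the same order.

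In bulk, median-ratio scaling gave 8.84% of raised genes lower in 3D than in 2D, 0.696% higher at day 16, and a CEP55 log2 change of 0.12 between 3D and 2D. Requiring a mean of 5 TPM gave 0.252% higher at day 19. With the lists widened to 1.5-fold and 20 CPM, 3.4% of raised genes were higher and 29.5% lower at day 16, 1.73% and 26.5% at day 19, and 10.4% and 14% of lowered genes were lower at days 16 and 19. Same-numbered libraries did not deviate together (correlations of -0.12 to 0.05). With so few libraries a group, these correlations cannot tell whether a shared number marks a shared culture. A replicate block gave 0.928%, 0.232% and 1.86% of raised genes higher at days 16, 19 and 23, log2 changes of 0.0345 for SPP1 and 0.0903 for APOE at day 19, and no call for MKI67 between 3D and 2D (adjusted p = 0.0658 with limma). Leaving out 1 library at a time gave 0.696 to 1.17% of raised genes higher at day 16 and 1.62 to 2.34% at day 23, and log2 changes between 3D and 2D of -0.17 to 0.0948 for CEP55 and -0.0478 to 0.23 for DLGAP5. At day 19 the ranges were -0.59 to 0.33 for TOP2A, -0.30 to 0.087 for SPP1 and -0.28 to 0.0903 for APOE, and at day 23 -0.29 to 0.22 for TOP2A. The cause was not tested for any of these.

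Limits are set by the single library per day, by 608 cells at 0 that were shallower than the members, and by 3 or 4 bulk libraries a group, whose read depth is unknown.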
